A study of Mus musculus with 4 samples.

Results

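The cells described here were the S2-like members of the proximal tubule in mouse kidneys recovering from ischaemia-reperfusion (I/R) injury, in which renal blood flow is stopped for a time and let back. Droplet single-cell RNA sequencing had been done on 4 libraries, with 1 library per group. The groups were IR_Lac.z_d5, male C57BL/6 mice gavaged with L. casei Zhang (Lac.z, a probiotic Lactobacillus) for 4 weeks at 1e9 colony-forming units per day before I/R and killed at day 5, and IR_d5, IR_d14 and IR_d28, male C57BL/6 mice without Lac.z that were killed at day 5, 14 or 28 after I/R. All 4 groups had I/R injury, and no uninjured kidney is part of the data used here. The sources used here do not say what the mice without Lac.z were gavaged with, nor how many animals went into a library. The groups are called Lac.z day 5, IR day 5, IR day 14 and IR day 28 below.

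Members were chosen on unique molecular identifiers (UMIs, counts of captured RNA molecules) in each barcode, that is, on the readout itself. Barcodes were kept if they held 200 genes or more and if mitochondrial UMIs did not exceed 50%. A member had at least 3 UMIs of Slc34a1, Lrp2 and Slc27a2 together, genes of the whole proximal tubule, and at least 3 UMIs of Slc22a6 and Slc22a8 together. That second sum also had to be at least 2 times the sum of the S1 genes Slc5a2 and Slc5a12 and at least 2 times the sum of the S3 genes Slc7a13, Slc22a30 and Cyp7b1. Barcodes with any Ptprc, or with 2 or more UMIs of Havcr1, of Vcam1, or of Mki67 and Top2a together, were left out. The rule found 7863 members among 37839 kept barcodes.

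The proximal tubule takes back most of what the glomerulus filters and is divided along its length into the segments S1, S2 and S3. S2 is known for the secretion of organic anions: the transporters OAT1 (Slc22a6) and OAT3 (Slc22a8) carry drugs, urate and uraemic toxins from blood into the cell, and apical pumps pass them into the urine. Like the rest of the proximal tubule, S2 cells are packed with mitochondria, run mainly on fatty acids, and make glucose.

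Member counts differed widely between the libraries. There were 1332 members in Lac.z day 5, 381 in IR day 5, 2178 in IR day 14 and 3972 in IR day 28, of 7043, 7086, 9572 and 14138 kept barcodes. As a share of kept barcodes that was 18.9% (95% exact binomial interval 18.0 to 19.8), 5.38% (4.86 to 5.93), 22.8% (21.9 to 23.6) and 28.1% (27.4 to 28.8). Proximal tubule barcodes as a whole made up 62.8% of kept barcodes in Lac.z day 5 and 22.0%, 67.8% and 77.8% in IR days 5, 14 and 28, so the IR day 5 library stood apart from the other 3. As a share of proximal tubule barcodes, members were 30.1% (28.8 to 31.5) in Lac.z day 5 and 24.4% (22.3 to 26.6), 33.6% (32.4 to 34.7) and 36.1% (35.2 to 37.0) in IR days 5, 14 and 28. The ratio of that share to IR day 5 was 1.23 (1.10 to 1.39) for Lac.z day 5, 1.38 (1.23 to 1.54) for IR day 14 and 1.48 (1.33 to 1.65) for IR day 28, all below 1.5. All 3 ratios share the IR day 5 library. With every kept barcode thinned to 2000 UMIs and the rule applied again, the ratio for Lac.z day 5 was 1.04, from 611 members in Lac.z day 5 and 189 in IR day 5. Among proximal tubule barcodes without a UMI of other cell types' markers it was 1.00. Here and below, those markers did not include erythroid genes, Apoe, Cd74, Pecam1, Wnk1 or Hsd11b2.

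**Figure D1:**
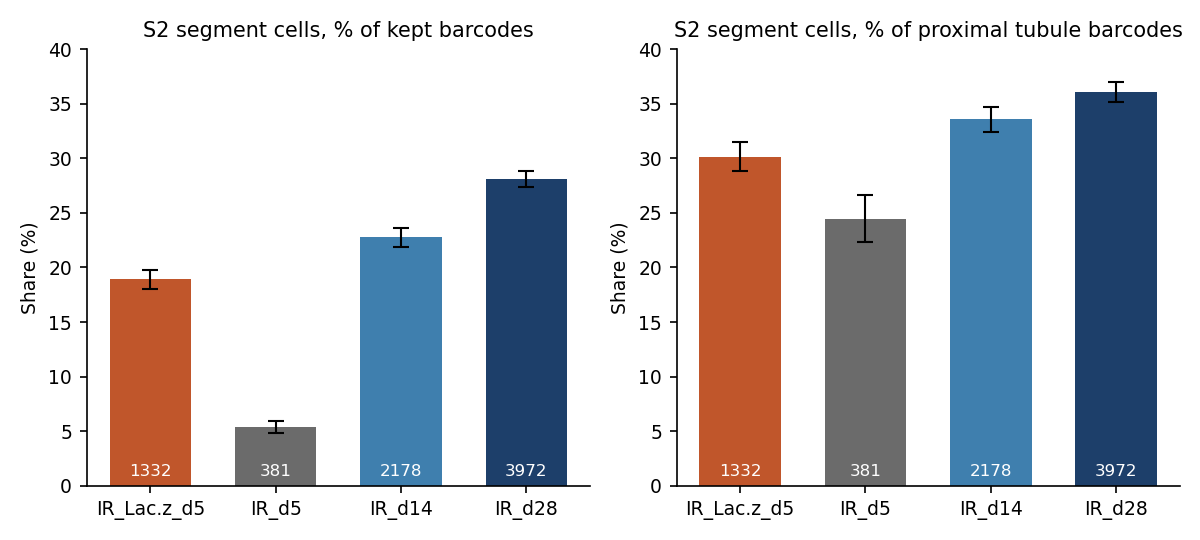
S2-like members as a percentage of kept barcodes and of proximal tubule barcodes in the 4 libraries, with exact 95% binomial intervals as error bars and the number of members in each bar. Members made up 30.1% of proximal tubule barcodes in Lac.z day 5 and 24.4%, 33.6% and 36.1% in IR days 5, 14 and 28.

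Ranges in parentheses, here and below, are exact 95% intervals that cover counting error alone. A single library per group gives no spread between animals to compare with, and so no test or p-value is given for any difference. For expression, the UMIs of each gene were summed over the members of a library and scaled to counts per 1000000 UMIs of that sum (CPM). The members held 12325571 UMIs in Lac.z day 5 and 3048632, 20450156 and 31919107 UMIs in IR days 5, 14 and 28, so the IR day 5 sums were the least precise. A member had a median of 8352 UMIs in Lac.z day 5 and of 6885, 7049.5 and 6139.5 UMIs in IR days 5, 14 and 28, with a mitochondrial share between 19.7% and 23.3%. A gene was called higher or lower where its CPM differed by at least 1.5-fold, with 1 UMI added to each sum, and it counted as measured if the 2 libraries together held 100 or more UMIs of it. IR day 5 had the fewest UMIs and is part of every comparison, so a gene of low level reached that minimum mainly through the other library, which favours genes that are high there.

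RNA of other cells was found in the members of every library, that of macrophages most of all at IR day 5. The 12 macrophage marker genes, with the C1q chains and Lyz2 among them, gave 451 CPM in Lac.z day 5 against 1247 CPM in IR day 5 over the 8 markers measured there. Over the 9 markers measured at the later times they gave 474 CPM in IR day 14 against 1261 CPM in IR day 5, and 213 CPM in IR day 28 against 1258 CPM in IR day 5. Members with no UMI of C1qa, C1qb, C1qc, Lyz2, Tyrobp or Cd74 were 37.8% in Lac.z day 5 and 17.3%, 45.4% and 63.0% in IR days 5, 14 and 28. They are called members with no macrophage UMI below. Cd74 weighs heavily in this choice, with a UMI in 39.4% of Lac.z day 5 members and 37.0% of IR day 5 members. C1qb had a UMI in 9.83% and 22.0% of them. In macrophage-gated barcodes, those with Ptprc and at least 3 C1q UMIs outside the proximal tubule gate, Lyz2 was far more abundant, and its level in members was 0.222% of that level in Lac.z day 5 and 0.774%, 0.196% and 0.0756% of it in IR days 5, 14 and 28. Markers of other cell types ran otherwise. Over the markers measured in each comparison, neutrophil markers summed to 29.6 CPM in Lac.z day 5 against 4.92 CPM in IR day 5, and erythroid markers to 23.4 CPM in Lac.z day 5 against 2.95 CPM in IR day 5. Thick ascending limb markers summed to 136 CPM in IR day 28 against 48.2 CPM in IR day 5, intercalated markers to 49.4 CPM in IR day 28 against 0.984 CPM in IR day 5, and principal cell markers to 54.3 CPM in IR day 28 against 13.8 CPM in IR day 5. Doublet scoring marked 6.08% of members in Lac.z day 5 and 1.57%, 9.04% and 14.6% in IR days 5, 14 and 28, and marked members were kept. Libraries shared 4 member barcodes over all pairs.

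The label was checked against its 4 markers. Slc22a6 stood at 619 CPM in the Lac.z day 5 cells and 697, 801 and 893 CPM in the IR cells of days 5, 14 and 28, and in cells chosen by the same rule for S1 it stood between 59.4 and 71.0 CPM. Slc22a8 stood at 448 CPM in the Lac.z day 5 cells and 417, 488 and 527 CPM in the IR cells of days 5, 14 and 28, against 161 to 220.1 CPM in S1 cells. Both genes chose the members, so these levels only describe the rule. Cyp4b1 and Cyp2e1, cytochrome P450 enzymes that oxidise fatty acids, drugs and solvents, were not part of the rule and were also far above their S1 levels. Cyp4b1 stood at 655 CPM in the Lac.z day 5 cells and 831, 1129 and 1477 CPM in the IR cells of days 5, 14 and 28, against 241 CPM in Lac.z day 5 S1 cells and 289, 178 and 289.7 CPM in S1 cells of IR days 5, 14 and 28. Cyp2e1 stood at 488 CPM in the Lac.z day 5 cells and 503, 553 and 623 CPM in the IR cells of days 5, 14 and 28, against 139.8 CPM in Lac.z day 5 S1 cells and 199, 101 and 77.5 CPM in S1 cells of IR days 5, 14 and 28. In macrophage-gated barcodes Cyp4b1 was between 2.51 and 12.3 CPM. In S3 cells Cyp4b1 was at 381 CPM in Lac.z day 5 and at 709.8, 276 and 453 CPM in IR days 5, 14 and 28, and Cyp2e1 at 190.1 CPM in Lac.z day 5 and at 292, 68.5 and 130.2 CPM in IR days 5, 14 and 28. The Cyp4b1 intervals of members (798 to 864 CPM) and of the 30 S3 cells (616 to 814 CPM) overlap in IR day 5, so there Cyp4b1 set members apart from S1 but not from S3 cells. All 4 markers were higher in members than in S1 cells of every library.

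Cyp4b1 also differed between libraries. In Lac.z day 5 members it was 0.789-fold (0.754 to 0.825) of its IR day 5 level, a difference under 1.5-fold. It was 1.36-fold (1.30 to 1.42) of the IR day 5 level in IR day 14 members and 1.78-fold (1.71 to 1.85) in IR day 28 members. Only the day 28 value passed 1.5-fold. Cyp2e1 stayed within 1.5-fold in all 3 comparisons, with ratios of 0.972-fold for Lac.z day 5, 1.10-fold for IR day 14 and 1.24-fold for IR day 28.

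Kap, the kidney androgen-regulated protein of mice, marked a gradient inside the members. It stood at 11455 CPM in the Lac.z day 5 cells and 17112, 30142 and 37625 CPM in the IR cells of days 5, 14 and 28. Kap in Lac.z day 5 was thus 1.49-fold lower than in IR day 5, just below 1.5-fold, and it was 1.76-fold (1.75 to 1.78) higher in IR day 14 and 2.20-fold (2.18 to 2.22) higher in IR day 28. Kap carried most UMIs of the list of 11 male-biased genes. That list summed to 13144 CPM in Lac.z day 5 and 19234, 32517 and 40592 CPM in IR days 5, 14 and 28. Among members with no macrophage UMI it was 13035 CPM in Lac.z day 5 and 26622, 34350.3 and 42411 CPM in those IR libraries. The IR day 5 sum was higher in that choice of members, so the Kap ratios may depend on it. In S1 cells Kap lay between 372 and 1069 CPM and in S3 cells between 33928 and 75024 CPM, so members lay between the 2 neighbouring segments. Only 30 S3 cells were found in IR day 5 and 81 in Lac.z day 5, and S3 values are given as levels only. Within members, those with more S3 than S1 UMIs had 15181 CPM of Kap in Lac.z day 5 and 24705, 37521 and 46949 CPM in IR days 5, 14 and 28. Members with more S1 than S3 UMIs had 6819 CPM in Lac.z day 5 and 6292, 9552 and 16780.1 CPM in IR days 5, 14 and 28. At day 5, Kap was therefore 15181 CPM in Lac.z against 24705 CPM in IR for members leaning to S3, but 6819 CPM in Lac.z against 6292 CPM in IR for members leaning to S1. The S3-leaning members were 45.9% of Lac.z day 5 members and 40.2%, 48.2% and 42.1% of IR day 5, 14 and 28 members.

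**Figure D2:**
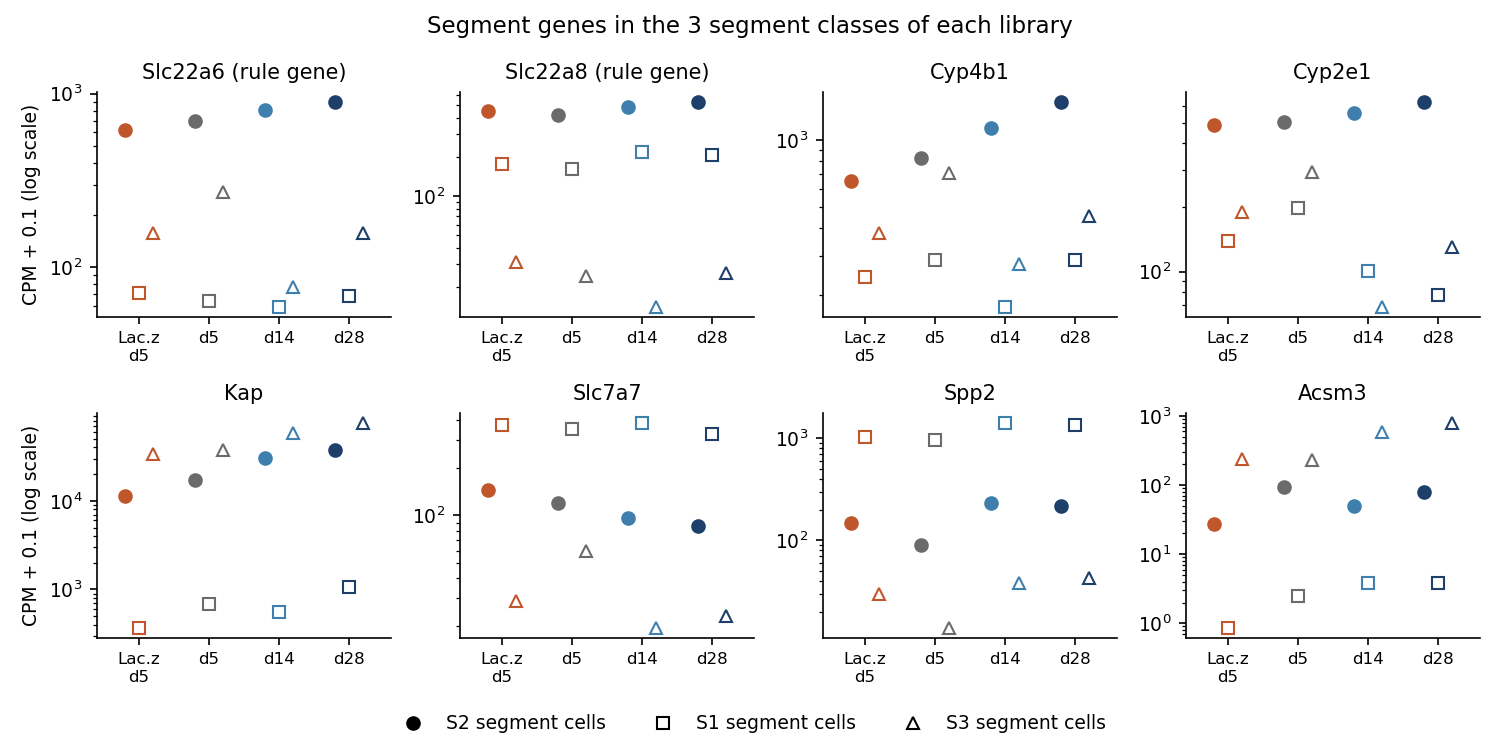
CPM of 8 segment genes (log axis, with 0.1 CPM added) in S2-like members (filled circles), S1 cells (squares) and S3 cells (triangles) of the 4 libraries. Slc22a6, Cyp4b1 and Cyp2e1 were higher in members than in S1 cells of every library, and Kap in members lay between S1 and S3 cells.

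Spp2, a secreted phosphoprotein that runs highest in S1, showed the opposite gradient. In S1-leaning members it stood at 288 CPM in Lac.z day 5 and at 188, 509.9 and 492 CPM in IR days 5, 14 and 28. In S3-leaning members it stood at 97.9 CPM in Lac.z day 5 and at 48.8, 136 and 105 CPM in IR days 5, 14 and 28. Members with exactly 3 UMIs of Slc22a6 and Slc22a8 had 402 CPM of Cyp4b1 in Lac.z day 5 and 617, 609.8 and 987 CPM in IR days 5, 14 and 28. Barcodes left out with only 2 such UMIs had 339 CPM in Lac.z day 5 and 424, 604 and 871 CPM in IR days 5, 14 and 28. The level just outside the rule was lower in every library, least so in IR day 14.

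Kap also varied strongly from cell to cell. The median member had 41.4 Kap UMIs per 10000 in Lac.z day 5 and 128, 233 and 342 per 10000 in IR days 5, 14 and 28. The middle 50% of members ran from 4.15 to 153 per 10000 in Lac.z day 5, from 33.9 to 251 in IR day 5, from 13.8 to 529 in IR day 14 and from 143 to 583 in IR day 28. The 2 day 5 libraries overlapped over much of this range. No Kap UMI was found in 11.8% of Lac.z day 5 members and in 4.72%, 9.04% and 3.80% of IR day 5, 14 and 28 members.

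**Figure D3:**
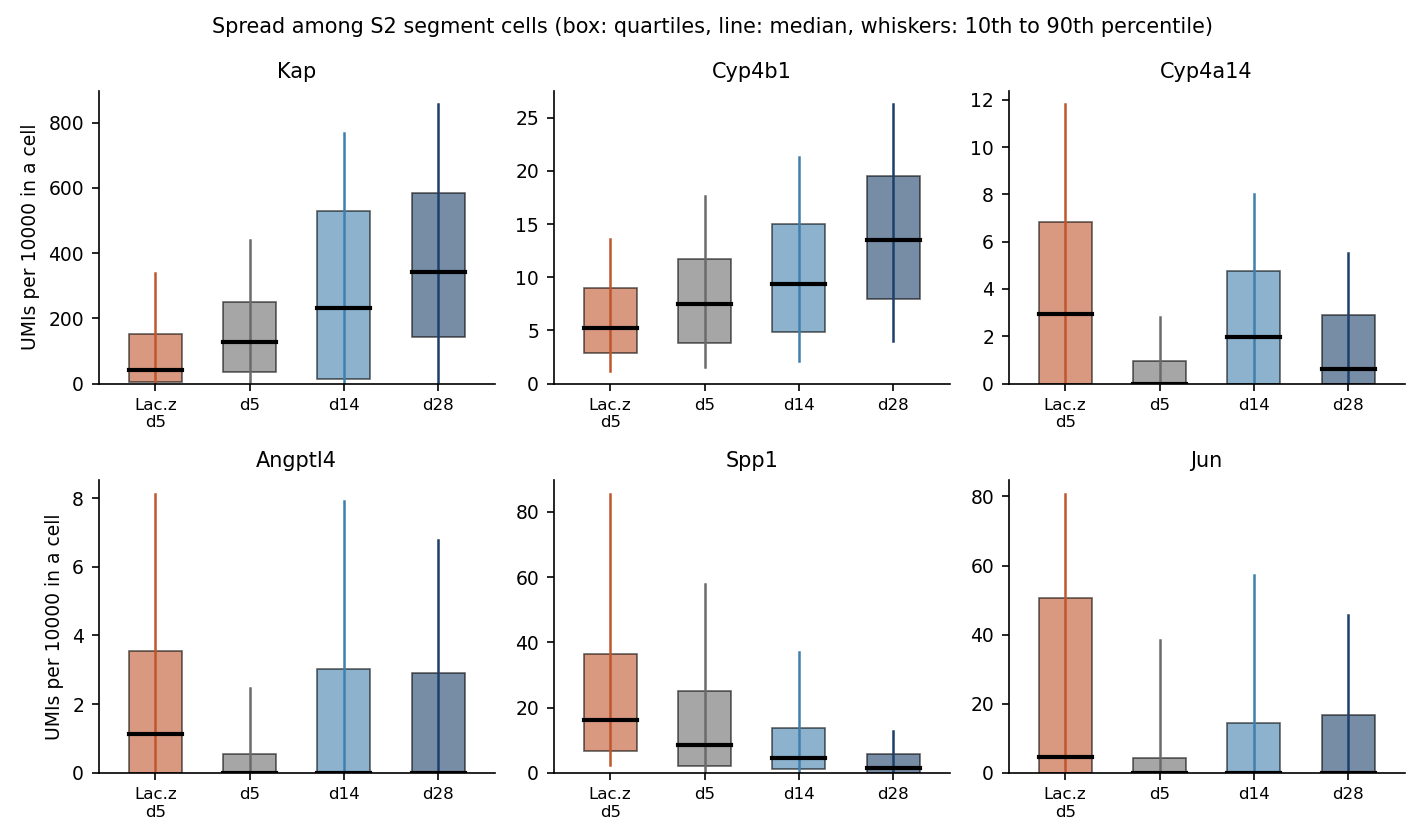
UMIs per 10000 in single members for 6 genes in the 4 libraries; the box spans the quartiles, the line is the median and the whiskers reach the 10th and 90th percentiles. The Kap boxes of the 2 day 5 libraries overlap, and the median of Cyp4a14 is 2.95 in Lac.z day 5 against 0 in IR day 5.

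In the comparison of Lac.z day 5 with IR day 5, the kidneys differed in the 4 weeks of Lac.z before I/R. Among measured genes, 20 of 24 interferon-stimulated genes, 14 of 21 immediate early genes, 11 of 20 PPARα targets and 5 of 10 glucocorticoid-responsive genes were higher in Lac.z members. On the other side, 4 of 19 genes of cholesterol synthesis and 5 of 11 male-biased genes were lower. Of 8303 genes measured, 852 (10.3%) were higher and 189 (2.28%) were lower in Lac.z members, and the median log2 ratio over all of them was 0.05. Of the 852, 654 had under 100 UMIs in IR day 5. The 10 lowest genes were mostly those of other cells: C1qa, C1qb, C1qc, Lyz2, Tyrobp, Fcer1g and Ctss of macrophages, Tmsb4x, and Umod of the thick ascending limb. Lyz2, for one, stood at 29.5 CPM in Lac.z members against 148 CPM in IR day 5 members.

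The interferon-stimulated genes were the list with the largest median difference among the 29 pathway lists in that comparison. Summed over all 37 genes of the list in the files, with no minimum of UMIs, they stood at 791 CPM (775 to 807) in Lac.z day 5 against 316 CPM (296 to 336) in IR day 5, and 29 of the 37 had a higher CPM in Lac.z and 8 a lower one. Of the 24 that counted as measured, 20 were higher in Lac.z, 1 was lower and the median log2 ratio was 1.19. All but 1 of the 24 had under 100 UMIs in IR day 5 and so counted as measured through Lac.z, which favours genes that are high there. Ifit3, which binds foreign RNA together with its relatives, stood at 33.3 CPM in the Lac.z day 5 cells and 3.94, 2.98 and 7.02 CPM in the IR cells of days 5, 14 and 28. It was 8.47-fold (4.80 to 16.5) higher in Lac.z day 5 than in IR day 5, and among the IR libraries day 28 had the highest level and day 14 the lowest. Ifit1, of the same family, was at 23.1 CPM in Lac.z day 5 against 2.62 CPM in IR day 5, or 8.81-fold (4.41 to 20.6) higher, but its 8 UMIs in IR day 5 all lay in 1 cell, so the IR day 5 level is uncertain beyond the interval. Reads of Ifit3 and its near-identical copy Ifit3b may have been split between them, so the levels of each are uncertain. Bst2, or tetherin, which holds budding viruses at the cell surface, stood at 71.7 CPM in the Lac.z day 5 cells and 20.3, 12.9 and 28.3 CPM in the IR cells of days 5, 14 and 28 and was 3.53-fold (2.72 to 4.64) higher in Lac.z day 5 than in IR day 5. Ifi27 was at 256 CPM in the Lac.z day 5 cells and 79.7, 62.0 and 124 CPM in the IR cells of days 5, 14 and 28, or 3.22-fold (2.82 to 3.68) higher in Lac.z day 5. Irf7, a transcription factor of the interferon response, was higher too, at 26.5 CPM in Lac.z day 5 against 6.89 CPM in IR day 5.

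The exception was Rsad2, or viperin, at 13.3 CPM in Lac.z day 5 against 23.3 CPM in IR day 5. Of its UMIs over both libraries 76.2% lay in 5 cells, and with members marked as doublets removed it was higher in Lac.z by 4.24 on the log2 scale. Rtp4 was among the 10 highest genes, at 10.2 CPM in Lac.z against 0.328 CPM in IR day 5, which was 1 UMI, so the ratio of 31.2-fold (5.49 to 1241) is known only loosely.

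The promoters of Ifit1, Ifit3, Bst2 and Xaf1 are shown because these are classical interferon targets with a large difference in members. Xaf1, at 8.19 CPM in Lac.z day 5 against 0.984 CPM in IR day 5, has no match in this window. Each is the RefSeq sequence on GRCm38.p6 from 250 bases before to 50 bases after the transcription start, in the direction of the gene. Capitals mark matches to GAAANNGAAA on either strand, the core of the interferon-stimulated response element that interferon-activated factors bind. In Bst2 both matches overlap each other.
Ifit1, chr19:34640639-34640938, plus strand: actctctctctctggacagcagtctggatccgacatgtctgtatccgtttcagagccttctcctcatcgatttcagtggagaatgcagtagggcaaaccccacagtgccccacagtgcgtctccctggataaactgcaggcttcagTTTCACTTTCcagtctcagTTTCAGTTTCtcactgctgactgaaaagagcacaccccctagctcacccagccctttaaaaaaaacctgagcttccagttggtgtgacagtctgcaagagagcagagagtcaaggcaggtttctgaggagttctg
Ifit3, chr19:34583279-34583578, plus strand: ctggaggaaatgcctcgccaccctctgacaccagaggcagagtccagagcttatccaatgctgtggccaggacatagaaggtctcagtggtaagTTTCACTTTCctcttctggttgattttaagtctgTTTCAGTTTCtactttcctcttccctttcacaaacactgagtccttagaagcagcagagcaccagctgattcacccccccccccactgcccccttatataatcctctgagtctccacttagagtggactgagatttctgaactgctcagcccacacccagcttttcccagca
Bst2, chr8:71537423-71537722, minus strand: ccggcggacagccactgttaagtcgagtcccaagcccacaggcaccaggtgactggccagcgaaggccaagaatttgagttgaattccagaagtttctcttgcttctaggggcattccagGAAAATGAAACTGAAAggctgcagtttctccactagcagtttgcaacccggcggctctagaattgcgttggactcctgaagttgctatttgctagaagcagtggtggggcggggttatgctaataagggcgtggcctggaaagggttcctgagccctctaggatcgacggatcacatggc
Xaf1, chr11:72301379-72301678, plus strand: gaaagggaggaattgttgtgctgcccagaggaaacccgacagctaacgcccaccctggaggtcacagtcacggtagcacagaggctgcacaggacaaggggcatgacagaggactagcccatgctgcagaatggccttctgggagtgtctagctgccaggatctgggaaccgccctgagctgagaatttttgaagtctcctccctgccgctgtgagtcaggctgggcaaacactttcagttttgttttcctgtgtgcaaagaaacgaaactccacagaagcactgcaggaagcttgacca
The matches begin 104 and 85 bases before the start in Ifit1, 156 and 122 in Ifit3, and 130 and 124 in Bst2. At least 1 match was found in 18 of the 26 genes of the interferon list that had a promoter in the table (69.2%), against 1079 of all 27025 genes of the table (3.99%), each counted over all its promoters. It was found in 4 of 13 class I antigen presentation genes (30.8%), in 1 of 15 PPARα targets (6.67%) and in none of 9 male-biased genes. A match describes the letters and is not a site. The interferon list was made of interferon-stimulated genes, measured in members or not, so its share describes the list and not these libraries.

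Levels of the interferon genes in other cells are set beside these values. Macrophage-gated barcodes held 117 UMIs of the interferon list per cell in Lac.z day 5 against 28.2 in IR day 5, and members held 7.32 in Lac.z day 5 against 2.52 in IR day 5. S1 cells held 18.6 in Lac.z day 5 against 5.18 in IR day 5, more than members in both libraries, and the list's median log2 ratio in S1 cells was 1.63. Ifit3 in members was at 10.1% of the macrophage-gated level in Lac.z day 5 and 16.5% in IR day 5, and Ifi27 was at 551% in Lac.z day 5 and 78.7% in IR day 5. C1qb, a defining macrophage gene, was at 0.214% in Lac.z day 5 and 1.45% in IR day 5. Members with no macrophage UMI were 503 in Lac.z day 5 and 66 in IR day 5. In them all 37 genes of the list summed to 685 CPM (659 to 712) in Lac.z day 5 against 194 CPM (151 to 247) in IR day 5. With every cell thinned to 2000 UMIs, 49.9% of Lac.z day 5 members held at least 1 UMI of the list against 27.7% of IR day 5 members. For comparison, the share in macrophage-gated barcodes was 99.1% in Lac.z day 5 against 91.6% in IR day 5.

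Antigen presentation differed less. Of 12 measured class I genes, 4 were higher in Lac.z members, none was lower, and the median log2 ratio was 0.40. Class II genes, which macrophages and dendritic cells express strongly, were lower for 3 of 6 with a median log2 ratio of −0.71, against 0.28 in S1 cells. Cd74, the class II invariant chain, was at 139 CPM in Lac.z day 5 against 253 CPM in IR day 5. With members marked as doublets removed the class II median was 0.21, and without UMIs of any other cell it was 0.12, so its direction was not stable.

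PPARα is the nuclear receptor that switches on fatty acid use, and 11 of 20 measured targets were higher in Lac.z members, 1 was lower and the median log2 ratio was 0.63. Cyp4a14, a fatty acid hydroxylase, was among the 10 highest genes of the comparison. It stood at 459.7 CPM in the Lac.z day 5 cells and 88.9, 345 and 205 CPM in the IR cells of days 5, 14 and 28, which made Lac.z day 5 the highest library and IR day 5 the lowest. The day 5 difference was 5.17-fold (4.58 to 5.86). Its relatives Cyp4a10 (2.40-fold) and Cyp4a31 (2.03-fold) were higher too, although reads of these near-identical genes may have been split between them. Cyp4a14 was at 48.1 CPM in Lac.z day 5 S1 cells against 6.56 CPM in IR day 5 S1 cells. After thinning to 2000 UMIs, Cyp4a14 was found in 46.8% of Lac.z day 5 members against 13.7% of IR day 5 members, and in 0.137% of Lac.z day 5 macrophage-gated barcodes against 0% of those of IR day 5. The medians before thinning were 8352 UMIs in Lac.z day 5 members against 6885 in IR day 5 members, and 11338 in Lac.z day 5 macrophage-gated barcodes against 12058 in those of IR day 5.

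Pdk4, which shuts pyruvate out of the citric acid cycle, was at 182 CPM in the Lac.z day 5 cells and 62.0, 291 and 97.2 CPM in the IR cells of days 5, 14 and 28, and 2.93-fold (2.53 to 3.42) higher in Lac.z day 5 than in IR day 5. Angptl4, a secreted inhibitor of lipoprotein lipase, was at 301 CPM in the Lac.z day 5 cells and 85.9, 375 and 308 CPM in the IR cells of days 5, 14 and 28, and 3.50-fold (3.09 to 3.98) higher. Both had their lowest level in IR day 5. The target that was lower was Cd36, a fatty acid uptake receptor that macrophages also carry, at 36.2 CPM in Lac.z day 5 against 57.7 CPM in IR day 5. The enzymes of β-oxidation as a list did not follow: 3 of 24 were higher, none was lower and the median log2 ratio was −0.05. The 3 were Slc25a20, the carnitine-acylcarnitine carrier (2.26-fold), Acsl1, which activates long-chain fatty acids (1.88-fold), and Hadha of the trifunctional protein (1.71-fold). Nuclear-encoded subunits of the respiratory chain were lower for 1 of 22 and higher for none, and no mitochondrially encoded gene of 13 passed 1.5-fold.

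Immediate early genes, which cells switch on within minutes of a stimulus, were higher for 14 of 21 and lower for 1, with a median log2 ratio of 0.79. Jun, a subunit of AP-1, was at 3115 CPM in the Lac.z day 5 cells and 1186, 2461 and 2034 CPM in the IR cells of days 5, 14 and 28, and 2.63-fold (2.54 to 2.72) higher in Lac.z day 5 than in IR day 5. Dusp1, a phosphatase that ends MAP kinase signals, was at 727 CPM in the Lac.z day 5 cells and 256, 556 and 437 CPM in the IR cells of days 5, 14 and 28, and 2.84-fold (2.64 to 3.06) higher. Jun was uneven between cells, since the upper quartile was 50.7 UMIs per 10000 in Lac.z day 5 against 4.22 in IR day 5, while 41.6% of Lac.z day 5 members and 64.6% of IR day 5 members had none. Glucocorticoid-responsive genes were higher for 5 of 10 and lower for none, with a median log2 ratio of 0.61, or 0.42 after thinning to 2000 UMIs. Sgk1, a kinase that raises sodium transport, was at 436 CPM in the Lac.z day 5 cells and 175, 532 and 479 CPM in the IR cells of days 5, 14 and 28, and Zbtb16 was at 25.5 CPM in the Lac.z day 5 cells and 6.56, 20.0 and 47.8 CPM in the IR cells of days 5, 14 and 28. Tsc22d3 was at 81.9 CPM in Lac.z day 5 against 37.7 CPM in IR day 5. Clock genes were higher for 6 of 14, with Per1 at 28.9 CPM in Lac.z day 5 against 10.5 CPM in IR day 5. Among those higher, 5 had fewer UMIs in IR day 5 than the minimum for a measured gene, and so were measured through Lac.z. Of the 6 clock genes that reached that minimum in IR day 5 alone, 1 was higher. Over all measured genes, 10.3% were higher. The sources used here do not say at what hour mice were killed.

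Injury genes were mixed, with 6 of 15 higher in Lac.z members, 1 lower and a median log2 ratio of 0.40. Spp1, or osteopontin, a secreted matrix protein of injured tubules, was at 3677 CPM in the Lac.z day 5 cells and 2264, 1427 and 434 CPM in the IR cells of days 5, 14 and 28. Its level was 1.62-fold (1.58 to 1.67) higher in Lac.z day 5 than in IR day 5, but lower by 0.07 on the log2 scale among members with no macrophage UMI. C3, the central complement protein, was at 95.4 CPM in Lac.z day 5 against 25.9 CPM in IR day 5, and the fibrinogen chain Fgb was at 19.2 CPM in Lac.z day 5 against 3.94 CPM in IR day 5. Gdf15, a stress cytokine, was at 143 CPM in Lac.z day 5 against 66.3 CPM in IR day 5. The injury gene that was lower was S100a11, a calcium-binding protein that macrophages also express, at 102 CPM in Lac.z day 5 against 173 CPM in IR day 5.

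Cholesterol synthesis genes ran the other way. None of 19 was higher in Lac.z members, 4 were lower and the median log2 ratio was −0.31. Idi1, isopentenyl diphosphate isomerase, was at 33.9 CPM in Lac.z day 5 against 73.8 CPM in IR day 5, or 2.18-fold (1.84 to 2.57) lower. Fdps, Mvd and Fdft1, further steps from mevalonate to squalene, were 1.92-fold, 1.71-fold and 1.58-fold lower. Male-biased genes were lower for 5 of 11 and higher for 2, with a median log2 ratio of −0.58. Acsm3, an acyl-CoA synthetase that runs highest in S3, was at 26.9 CPM in the Lac.z day 5 cells and 94.1, 50.5 and 80.5 CPM in the IR cells of days 5, 14 and 28, or 3.49-fold (2.97 to 4.11) lower in Lac.z day 5 than in IR day 5. It was among the 10 lowest genes of the comparison and, unlike the other 9, was higher in members than outside the proximal tubule, where it was at 0.0735 CPM in Lac.z day 5 and 0.361 CPM in IR day 5. Odc1, the first enzyme of polyamine synthesis, was at 228 CPM in Lac.z day 5 against 446 CPM in IR day 5.

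Transport genes were mostly within 1.5-fold. Organic ion transporters other than the 2 of the rule were higher for 5 of 18 in Lac.z members and lower for 1. Their median log2 ratio was 0.28. Of the 5, 4 had fewer UMIs in IR day 5 than the minimum for a measured gene, and so were measured through Lac.z. Of the 13 that reached that minimum in IR day 5 alone, 1 was higher. Over all measured genes, 10.3% were higher. Sodium-coupled and water transporters were higher for 5 of 26 and lower for none, with a median log2 ratio of 0.34. Of the 22 of them that reached the minimum in IR day 5 alone, 4 were higher. Aqp1, the water channel, was at 201 CPM in Lac.z day 5 against 119 CPM in IR day 5, and Slc5a1, the glucose transporter SGLT1, at 44.5 CPM in Lac.z day 5 against 22.0 CPM in IR day 5. Outside the lists, the 10 highest genes included the transcription factor Foxq1 at 18.2 CPM in Lac.z day 5 against 0.984 CPM in IR day 5, from 3 UMIs in IR day 5. Prlr, the prolactin receptor, was at 43.7 CPM in Lac.z day 5 against 7.87 CPM in IR day 5, or 5.55-fold (3.69 to 8.75) higher. Gsta4, a glutathione transferase for lipid aldehydes, was at 79.8 CPM in Lac.z day 5 against 17.1 CPM in IR day 5, or 4.68-fold (3.54 to 6.31) higher.

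**Figure D4:**
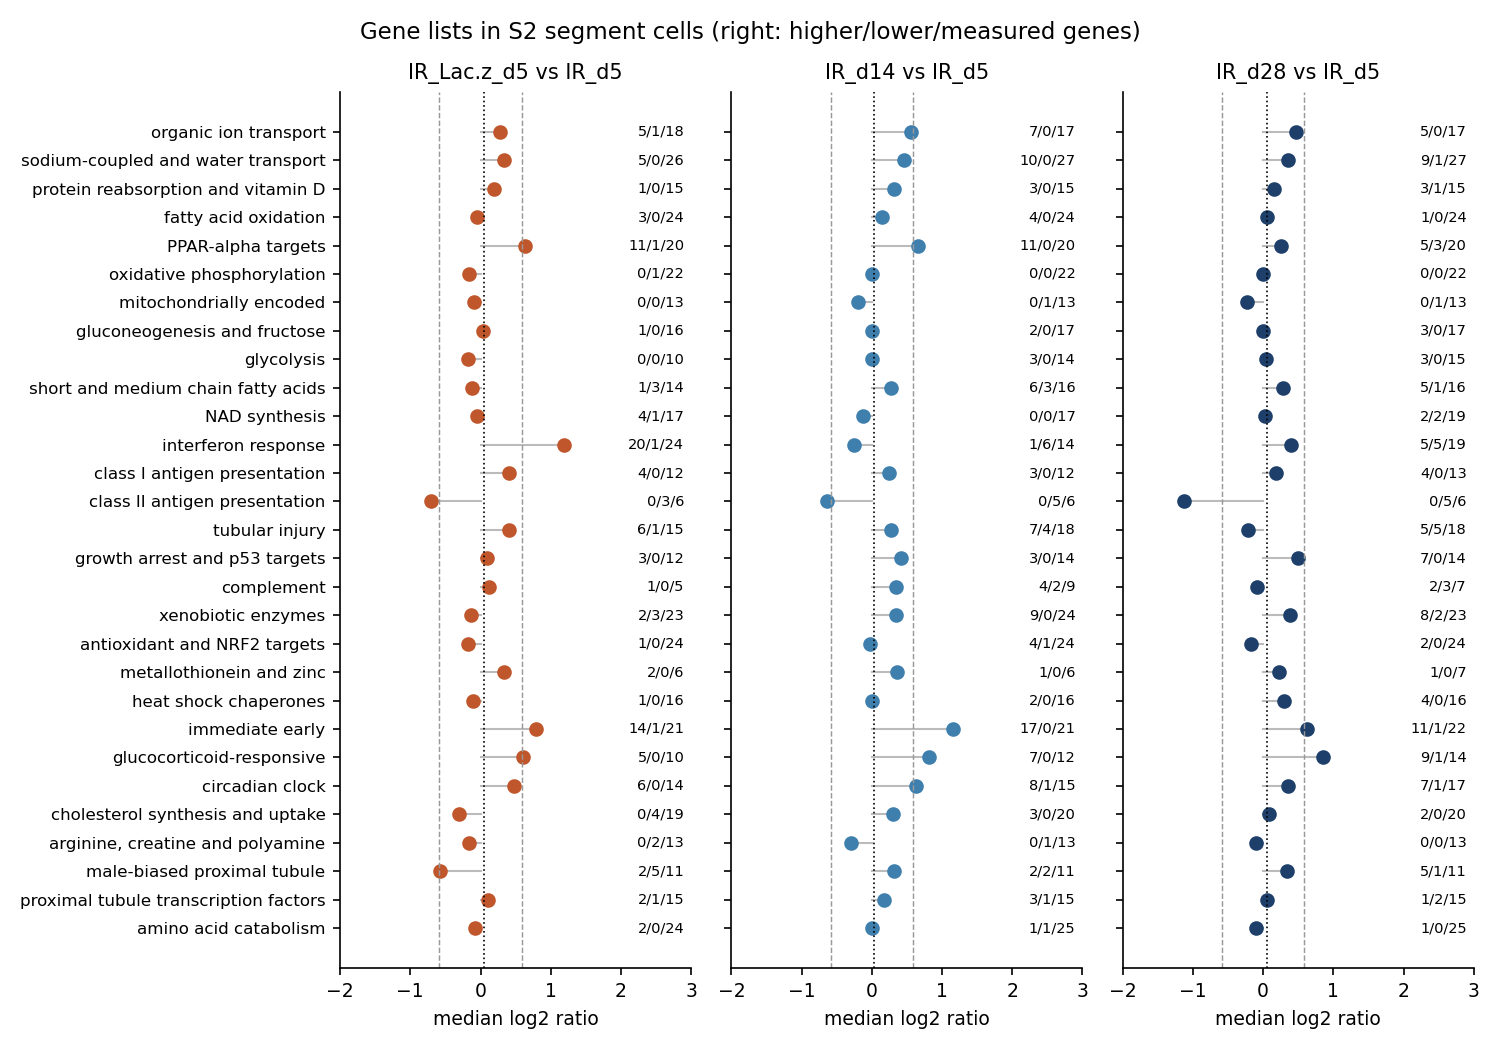
Median log2 ratio of the measured members of 29 gene lists in the 3 comparisons with IR day 5; dashed lines mark 1.5-fold, the dotted line is the median of all measured genes, and the numbers at the right are genes higher, lower and measured. The interferon list stands at 1.19 in Lac.z day 5 and at −0.26 and 0.40 in IR days 14 and 28, and PPARα targets at 0.63, 0.66 and 0.25 in the same order.

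The later times were each compared with IR day 5, so both comparisons and the Lac.z comparison share that library. The software version in the file headers also changed between day 5 and the later times, and the 2 cannot be told apart. At IR day 14, 1076 of 9134 measured genes (11.8%) were higher than in IR day 5 and 402 (4.40%) were lower, with a median log2 ratio of 0.03. At IR day 28, 1106 of 9758 (11.3%) were higher and 469 (4.81%) were lower, with a median of 0.05. These balances depend on the scaling: without mitochondrial and haemoglobin UMIs 899 were higher and 536 lower at day 14, and 886 higher and 601 lower at day 28. With every member weighted equally 842 were higher and 804 lower at day 14, and 837 higher and 936 lower at day 28, so the excess of higher genes was nearly lost at day 14 and turned round at day 28. Higher genes made up 17 of 21 immediate early genes at day 14 and 11 of 22 at day 28, and 7 of 12 glucocorticoid-responsive genes at day 14 and 9 of 14 at day 28. The injury genes Spp1 and Fgg were lower at both times.

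PPARα targets were higher for 11 of 20 at day 14 and lower for none, with a median log2 ratio of 0.66, and at day 28 they were higher for 5 and lower for 3 of 20, with a median of 0.25. Pdk4 had its highest level in IR day 14, and was 4.69-fold (4.06 to 5.45) higher at day 14 and 1.57-fold (1.35 to 1.83) higher at day 28 than in IR day 5. Angptl4 was 4.37-fold (3.86 to 4.96) higher at day 14 and 3.58-fold (3.17 to 4.07) higher at day 28. Ehhadh, the peroxisomal bifunctional enzyme, was at 149, 353 and 213 CPM in IR days 5, 14 and 28, or 2.36-fold (2.15 to 2.60) higher at day 14 than at day 5. Plin2, which coats lipid droplets, was lower at day 28, at 120.4 CPM against 184 CPM in IR day 5. Fatty acid oxidation enzymes were higher for 4 of 24 at day 14 and 1 of 24 at day 28. None of the 22 respiratory chain genes passed 1.5-fold at either time.

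**Figure D5:**
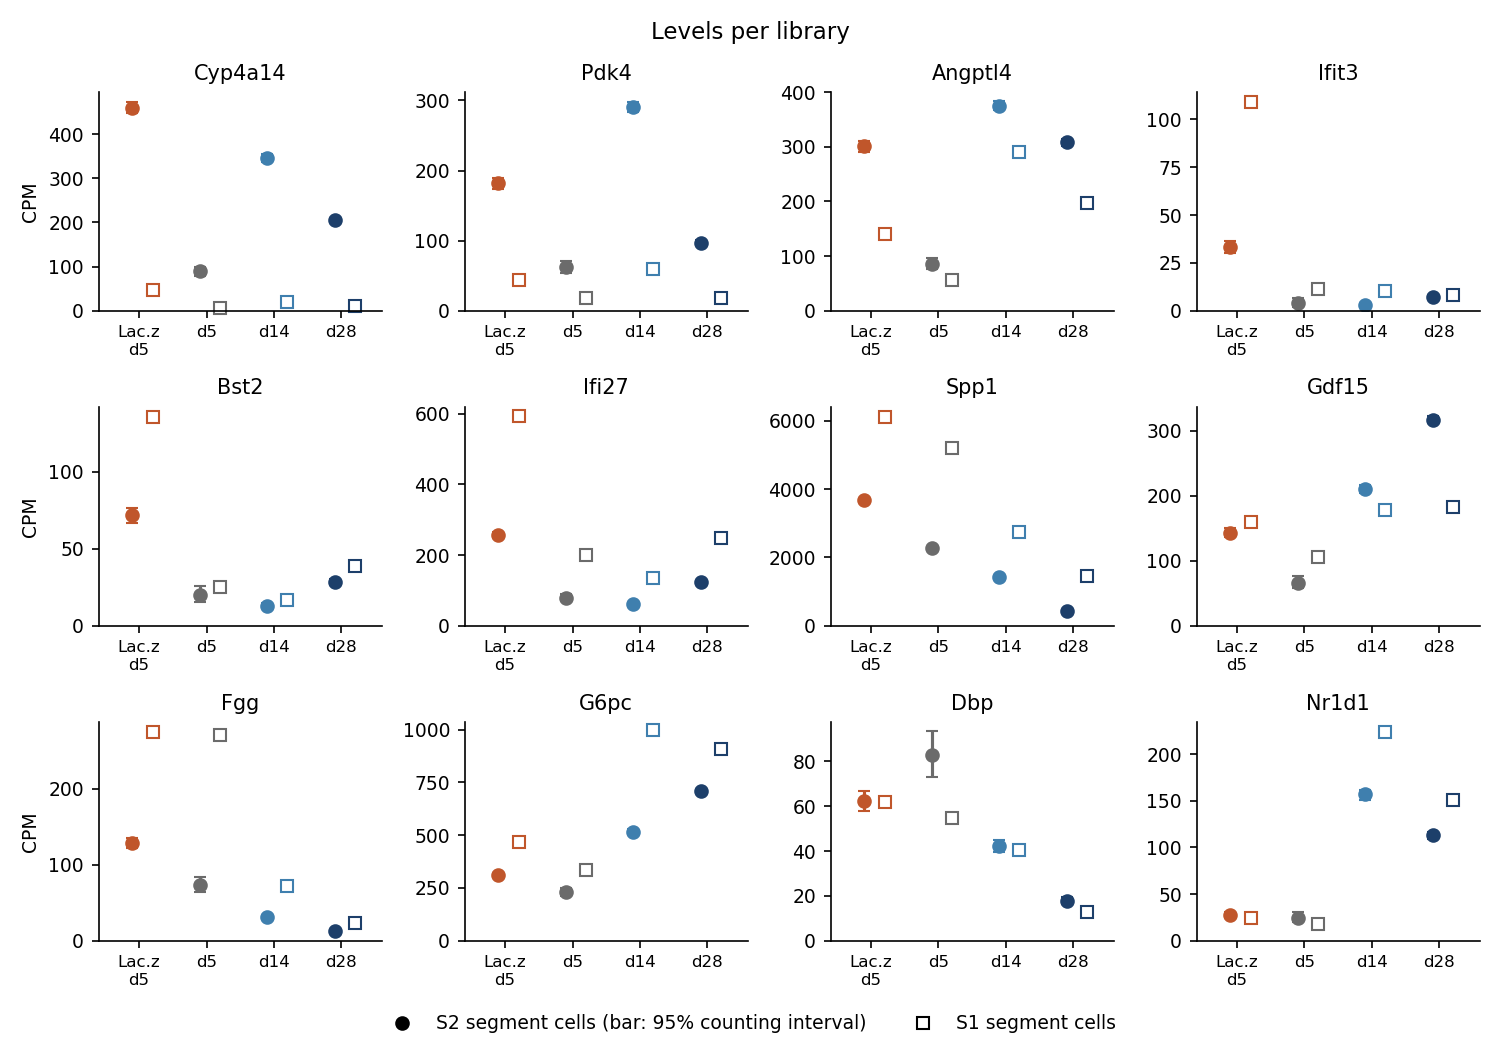
CPM of 12 genes in S2-like members (circles, with exact 95% counting intervals) and in S1 cells (squares) of the 4 libraries. Cyp4a14, Pdk4 and Angptl4 are lowest in IR day 5 members, Ifit3, Bst2 and Ifi27 are highest in Lac.z day 5, and Spp1 is lowest in IR day 28.

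Organic ion transporters were higher for 7 of 17 at day 14 and for 5 of 17 at day 28, with none lower at either time and median log2 ratios of 0.56 and 0.47. Among those higher, 2 at each time had fewer UMIs in IR day 5 than the minimum for a measured gene, and so were measured through the later library. Of the 13 that reached that minimum in IR day 5 alone, 5 were higher at day 14 and 3 at day 28. Over all measured genes, 11.8% were higher at day 14 and 11.3% at day 28. Abcc4, an apical pump that moves organic anions into urine, was at 17.7, 57.9 and 26.6 CPM in IR days 5, 14 and 28, and 3.27-fold (2.49 to 4.38) higher at day 14 than at day 5. Slco1a1, an anion carrier, was at 12.5, 15.4 and 35.9 CPM at the same times, and 2.88-fold (2.08 to 4.09) higher at day 28. Both were above the IR day 5 level at both later times. Sodium-coupled and water transporters were higher for 10 of 27 at day 14 and for 9 at day 28. Among those higher, 4 at day 14 and 3 at day 28 were below that minimum in IR day 5. Of the 22 that reached it in IR day 5 alone, 6 were higher at each time. Slc5a8, a monocarboxylate transporter, was at 86.3, 220.4 and 169.6 CPM in IR days 5, 14 and 28. The sodium pump subunit Atp1b1 was at 675, 1204 and 1089 CPM at the same times, and Aqp1 at 119, 230.1 and 207 CPM, so day 14 was the highest for all 3. The exception was Slc13a1, the sulphate transporter, which was 1.76-fold (1.69 to 1.83) lower at day 28, at 594 CPM against 1045 CPM in IR day 5. Folr1, the folate receptor, was at 287, 532 and 463 CPM, on a reabsorption list in which 3 of 15 genes were higher at each time.

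Xenobiotic enzymes had other medians in members than in S1 cells. In members 9 of 24 were higher at day 14 and none was lower, with a median log2 ratio of 0.35, and 8 of 23 were higher and 2 lower at day 28, with a median of 0.39. In S1 cells the medians were −0.04 and −0.06 over 21 genes, and over those same genes the member medians were 0.26 and 0.39, and whether the segments differ was not tested. Ces1d, a carboxylesterase, was at 116, 283 and 249 CPM in members of IR days 5, 14 and 28, Ugt2b37, a glucuronosyltransferase, at 81.0, 185 and 122 CPM, and Cyp2j11 at 52.8, 126 and 90.2 CPM. Male-biased genes were higher for 2 and lower for 2 of 11 at day 14, and higher for 5 and lower for 1 at day 28. Cyp4a12a, which makes the vasoactive lipid 20-HETE in male mice, was the 1 lower at day 28, with 31.8, 8.80 and 13.9 CPM at days 5, 14 and 28, but was higher at day 28 by 0.29 on the log2 scale among members with no macrophage UMI.

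Glucose output genes were higher for 2 of 17 at day 14 and 3 of 17 at day 28, near the share of all genes. G6pc, the last enzyme of glucose release, was at 231, 517 and 711 CPM in IR days 5, 14 and 28, or 3.08-fold (2.86 to 3.33) higher at day 28 than at day 5. Pck1, which controls entry to gluconeogenesis, was at 791, 1182 and 1299 CPM, and Slc37a4, which brings glucose-6-phosphate to G6pc, at 94.1, 153 and 177 CPM. The rest of the list lay within 1.5-fold at day 28, and its median log2 ratio was 0.00.

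Injury genes were higher for 7 and lower for 4 of 18 at day 14, and higher for 5 and lower for 5 of 18 at day 28. Spp1 was 1.59-fold (1.55 to 1.63) lower at day 14 and 5.21-fold (5.06 to 5.37) lower at day 28 than at day 5. In S1 cells Spp1 was at 1461 CPM at day 28 against 5196 CPM at day 5. Fgg, a fibrinogen chain, was at 73.1, 31.9 and 13.0 CPM in IR days 5, 14 and 28, or 5.64-fold (4.77 to 6.65) lower at day 28. Gdf15 went the other way, with 66.3, 209.9 and 317 CPM at the 3 times, and was 4.78-fold (4.16 to 5.53) higher at day 28 than at day 5. In S1 cells Gdf15 was at 182 CPM at day 28 against 106 CPM at day 5. Hbegf, a ligand of the EGF receptor, was at 139.6 CPM at day 28 against 52.2 CPM at day 5. Clu, or clusterin, was at 41.0 CPM at day 14 against 6.89 CPM at day 5, and Krt8, a keratin of simple epithelia, at 219.9 CPM at day 14 against 85.6 CPM at day 5. Thick ascending limb, principal cell and fibroblast markers were higher in members at day 14 as well, with the values given below.

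Growth arrest and p53 target genes were higher for 3 of 14 at day 14 and for 7 of 14 at day 28, with none lower at either time and median log2 ratios of 0.41 and 0.50. Over all measured genes, 11.8% and 11.3% were higher. Of the list's higher genes, 1 at day 14 and 5 at day 28 had under 100 UMIs in IR day 5. Without UMIs of other cells the list summed to 582 and 689.9 CPM at days 14 and 28, against 572 CPM (498 to 654) at day 5. Without macrophage UMIs the sums were 634 and 810.4 CPM against 438 CPM (371 to 514). Cdkn1a, the cell cycle inhibitor p21, was at 9.84, 13.3 and 26.7 CPM in IR days 5, 14 and 28. Plk2 and Plk3, polo-like kinases of the stress response, were likewise lowest at day 5. Plk2 was at 5.58, 28.6 and 19.0 CPM, and Plk3, which was among the 10 highest genes at day 28, at 14.4, 65.1 and 90.9 CPM, or 6.30-fold (4.68 to 8.69) higher at day 28. Trp53inp1 was at 19.4, 26.7 and 39.2 CPM and Sesn2 at 25.6, 34.7 and 44.1 CPM. The S1 cells gave a median of 0.69 for the list at day 28.

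Immediate early genes were higher for 17 of 21 at day 14 and for 11 of 22 at day 28, with median log2 ratios of 1.16 and 0.62. Egr1 was at 36.4, 130.0 and 117 CPM in IR days 5, 14 and 28, and Fos at 395, 1192 and 522 CPM. With barcodes thinned to 2000 UMIs and members chosen again, these medians were 0.24 and 0.08. Glucocorticoid-responsive genes were higher for 7 of 12 at day 14 and for 9 of 14 at day 28, with 1 lower at day 28, and with median log2 ratios of 0.82 and 0.86. Among those higher, 3 at day 14 and 5 at day 28 had fewer UMIs in IR day 5 than the minimum for a measured gene. They were measured through the later library. Of the 7 that reached that minimum in IR day 5 alone, 4 were higher at each time. Over all measured genes, 11.8% were higher at day 14 and 11.3% at day 28. After thinning, the glucocorticoid-responsive median at day 14 was 0.03. Zbtb16 was among the 10 highest genes at day 28, and 7.29-fold (4.70 to 12.0) higher there than at day 5. Sgk1 was 3.05-fold (2.80 to 3.33) higher at day 14 and 2.74-fold (2.52 to 3.00) higher at day 28.

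Clock genes differed in both directions. At day 14, 8 of 15 were higher and 1 lower, and at day 28 the numbers were 7 and 1 of 17. Of those higher, 6 at day 14 and 5 at day 28 had under 100 UMIs in IR day 5. The median log2 ratio of the list at day 14 was 0.63, but −0.43 after thinning to 2000 UMIs and 0.09 among members without UMIs of any other cell, so its direction depends on the processing. Nr1d1, or REV-ERBα, a repressor of Arntl, was at 24.9, 157 and 113 CPM in IR days 5, 14 and 28, Nfil3 at 3.61, 30.1 and 22.5 CPM, and Arntl at 1.64, 3.91 and 10.8 CPM. Dbp, an output factor of the clock, was at 82.7, 42.2 and 17.7 CPM at the same times, and 4.66-fold (4.00 to 5.42) lower at day 28. Nr1d1 and Nfil3 were higher and Dbp lower at both later times.

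At day 14 more interferon genes were lower than higher, and at day 28 they had no common direction. All 37 genes summed to 211 CPM (205 to 217) in IR day 14 against 316 CPM (296 to 336) in IR day 5. In IR day 28 the sum was 356 CPM (349 to 362). At day 14, 11 of the 37 had a higher CPM and 26 a lower one, and at day 28 the numbers were 19 and 17. Among members with no macrophage UMI the sum was 171 CPM (161 to 181) in IR day 14 against 194 CPM (151 to 247) in IR day 5. Among measured genes, 1 of 14 was higher and 6 were lower at day 14, with a median log2 ratio of −0.26. At day 28, 5 were higher and 5 lower of 19, with a median of 0.40. Members held 1.98 UMIs of the list per cell in IR day 14 and 2.86 in IR day 28, against 2.52 in IR day 5. Class II genes were lower for 5 of 6 at both times, beside the lower macrophage markers given above, whose part in this was not tested. With members marked as doublets removed the day 14 median was 0.20.

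Among the 10 highest genes of day 14 were Rarres2, the secreted protein chemerin, at 10.2, 118 and 54.0 CPM in IR days 5, 14 and 28, and the transcription factor Osr2 at 2.30, 26.4 and 19.5 CPM. Rarres2 was 11.6-fold (8.16 to 17.1) and Osr2 11.5-fold (5.53 to 28.7) higher at day 14 than at day 5, and in S1 cells Osr2 was at 333 CPM at day 14 against 73.2 CPM at day 5. Serpina1a, α1-antitrypsin, was at 20.8 CPM at day 14 against 0.656 CPM at day 5, with near-identical copies that could share its reads. Gm42418, a locus that overlaps ribosomal RNA, was at 29117 CPM at day 14 and 21509 CPM at day 28, against 6402 CPM at day 5. Markers of other cells differed too. At day 14 all 6 measured fibroblast or mural markers were higher, with 59.0 CPM in sum against 2.62 CPM at day 5, and Col3a1, at 17.2 CPM, was found in 0.597% of members. Thick ascending limb markers, 3 of 4 higher, summed to 111 CPM at day 14 against 48.2 CPM at day 5, and principal cell markers, 3 of 4 higher, to 39.8 CPM at day 14 against 13.8 CPM at day 5. Their part in the other day 14 differences was not tested beyond leaving out genes at least 5 times higher outside the proximal tubule, after which 942 genes were higher and 344 lower at day 14.

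At day 28, several of the 10 highest genes were those of the distal nephron. Atp6v1g3, a proton pump subunit of intercalated cells, was at 40.4 CPM at day 28 and had no UMI in IR day 5 members, so it was at least 41.0-fold higher, counting the zero as 3 UMIs. It was found in 1.96% of day 28 members, and outside the proximal tubule it was at 1018 CPM at day 28 against 53.1 CPM at day 5. Defb1, a defensin, was at 59.6 CPM in day 28 members against 4.26 CPM in day 5 members, and outside the proximal tubule at 1568 CPM at day 28 against 69.2 CPM at day 5. Pvalb was at 7.71 CPM at day 28 against 0 CPM at day 5, Calb1 at 23.9 CPM at day 28 against 1.97 CPM at day 5, and Tmem213 at 24.9 CPM at day 28 against 2.30 CPM at day 5. Distal convoluted tubule markers in members summed to 221 CPM at day 28 against 104 CPM at day 5. There were 914 genes higher and 386 lower at day 28 once genes at least 5 times higher outside the proximal tubule were left out. The 10 highest genes also included Slc25a25, an ATP carrier of mitochondria, at 20.3, 48.7 and 121 CPM in IR days 5, 14 and 28, and the nuclease Dnase1 at 44.6, 181 and 238 CPM. Slc25a25 was 5.94-fold (4.63 to 7.77) and Dnase1 5.35-fold (4.51 to 6.38) higher at day 28 than at day 5.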

How the data were processed

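Per the file headers, the deposited values were raw counts of UMIs for each gene and barcode, without normalisation. Kidneys had been digested with enzymes, strained and freed of red cells, per the labels' protocols. The submitters' processing notes name mm10 as the genome build. Per the file headers, software 3.0.2 made the matrices of day 5 and software 3.1.0 those of days 14 and 28. The sources used here do not name the aligner. Every library's lowest barcode held 502 to 509 UMIs, and library totals ran from 76678882 to 104454319 UMIs.

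Members were found as the report states, UMIs were summed per library, and ratios carry exact conditional binomial 95% intervals. Genes of the membership rule were left out of counts and lists. Python 3.11.15, numpy 2.4.6, pandas 2.3.3, scipy 1.17.1 and matplotlib 3.10.9 were used. Doublets were scored with Scrublet in scanpy 1.11.5, and the top 0.8% per 1000 barcodes were marked, since its own threshold marked 1 to 161 barcodes per library. The ratios, calls and intervals of single genes were tested on simulated Poisson counts, which hold no spread between cells or animals. The choice of members, the thinning and the doublet marking were not tested in this way.

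The members and gene lists were chosen with earlier results of these data known. Genes were named by rule: per comparison, the 10 highest and the 10 lowest by the interval bound nearest to 1, the highest and lowest of each list with at most 2 of most UMIs, and the 4 markers. Aqp1, Arntl, Cdkn1a, Ces1d, Col3a1, Cyp2j11, Cyp4a10, Cyp4a31, Fdft1, Fdps, Fos, Hadha, Hbegf, Irf7, Mvd, Sesn2, Slc37a4, Trp53inp1, Tsc22d3, Ugt2b37 and Xaf1 were named after their values were seen, as were named genes outside the comparison that named them. Alternatives left out marked doublets or members with UMIs of other cells, or thinned barcodes to 2000 UMIs before members were chosen again. Others weighted cells equally, and varied the mitochondrial limit, the dominance and the UMI minimum. Sums of lists without a UMI minimum, and counts split by the UMIs in IR day 5, were added after seeing the data. Some results are not reported here.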

Additional observations from a re-analysis of the deposited data

How the results depend on the processing

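No paired analysis was possible because each group had 1 library, and for the same reason no replicate could be left out. Leaving out members with a UMI of any other cell type, and leaving out genes of other cells, were chosen after seeing the data. The ratio of the member share of proximal tubule barcodes to IR day 5 was 1.04 for Lac.z day 5 after thinning, 1.67 for IR day 28 at a mitochondrial limit of 25%, 1.19 for IR day 14 and 1.19 for IR day 28 without macrophage UMIs, and 1.00, 1.14 and 1.22 for Lac.z day 5, IR day 14 and IR day 28 without UMIs of any other cell. The number of genes higher in Lac.z day 5 was 1306 at a minimum of 30 UMIs, 442 at 300 and 167 after thinning. For IR day 14 it was 675 at 300 UMIs, 391 after thinning and 710 without other-cell UMIs, and for IR day 28 it was 535 after thinning and 1985 without macrophage UMIs. The number lower was 472, 842 and 989 at 30 UMIs, and 71, 171 and 233 at 300 UMIs, for Lac.z day 5, IR day 14 and IR day 28. At the 25% limit it was 332, 705 and 766 in that order. With cells weighted equally it was 804 for IR day 14, beside 842 higher, and 936 for IR day 28, beside 837 higher, after thinning 59 for Lac.z day 5 and 235 for IR day 14, without macrophage UMIs 902 for IR day 28, and without other-cell UMIs 609 for IR day 14 and 1001 for IR day 28. The cause of these shifts was not tested, except that a UMI minimum by construction alters how many genes are measured. Signs turned as follows, on the log2 scale. For Lac.z day 5, with doublets removed, the class II list was at 0.21, Rsad2 at 4.24, Cd74 at 0.29 and Socs3 at 0.35. Without other-cell UMIs the class II list was at 0.12 and Cd74 at 0.38, without macrophage UMIs Rsad2 was at 3.20 and Spp1 at −0.07, and Rsad2 was at 1.94 at the 25% limit and at 0.15 with equal weights. For IR day 14, with doublets removed, the class II list was at 0.20, H2-Eb1 at 0.22 and Cd74 at 0.38. After thinning, the clock list was at −0.43, the list of other S3 genes at −0.39, Cd74 at 0.27, Fth1 at 0.02, Jun at −0.02 and Errfi1 at −0.06. Without macrophage UMIs, the S3 genes were at −0.13 and Gldc at 0.12, and without other-cell UMIs, the class II list was at 0.03, Cd74 at 0.57, the S3 genes at −0.17 and Btg2 at −0.29. For IR day 28, Cd74 was at 0.21 with doublets removed, at 0.02 after thinning and at 0.32 without other-cell UMIs. Jun was at −0.13 after thinning, and endothelial markers were at 0.17 at 3-fold dominance. Without macrophage UMIs, Ifi27 was at −0.10, Aldh1a1 at 0.14, Socs3 at 0.37 and Cyp4a12a at 0.29. Of 1288 alternative values of list medians, 1208 kept their direction and their side of 1.5-fold and 9 turned sign. Of 4411 values of named genes, 4109 kept both and 25 turned sign. The interferon median for Lac.z day 5 stayed between 1.15 and 1.79 in the settings with at least 3 measured genes, and thinning left too few genes for a value. All these settings kept a UMI minimum over both libraries, which favours genes that are high in Lac.z, so the range does not remove that limit. With 381 members in IR day 5, genes of few UMIs are known least well there.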

Other observations

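Short and medium chain fatty acids, which gut bacteria also make, are taken up by monocarboxylate carriers and activated by acyl-CoA synthetases. In Lac.z day 5 members 1 of 14 measured genes of this list was higher and 3 were lower than in IR day 5. At day 14, 6 of 16 were higher and 3 lower than in IR day 5, and at day 28, 5 were higher and 1 lower. Among those higher, 3 at each time had fewer UMIs in IR day 5 than the minimum for a measured gene. They were measured through the later library. Of the 10 that reached that minimum in IR day 5 alone, 3 were higher and 3 lower at day 14. At day 28, 2 of these 10 were higher and 1 lower. Over all measured genes, 11.8% were higher at day 14 and 11.3% at day 28. Acsm2, a medium chain acyl-CoA synthetase, stood at 1222 CPM in the Lac.z day 5 cells and 1204, 1884 and 1833 CPM in the IR cells of days 5, 14 and 28. The carrier Slc16a1, or MCT1, was at 16.5 CPM in the Lac.z day 5 cells and 13.1, 31.4 and 38.7 CPM in the IR cells of days 5, 14 and 28, with the 2 later libraries above both day 5 libraries. Bdh1, a ketone body dehydrogenase, was at 18.4 CPM in the Lac.z day 5 cells and 37.4, 16.5 and 16.8 CPM in the IR cells of days 5, 14 and 28, so IR day 5 was the highest.

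NAD synthesis genes were higher for 4 of 17 and lower for 1 in Lac.z day 5 members. All 4 had fewer UMIs in IR day 5 than the minimum for a measured gene, and so were measured through Lac.z. Of the 10 genes that reached that minimum in IR day 5 alone, none was higher. Summed over the whole list, the level was 879 CPM in Lac.z day 5 against 877 CPM in IR day 5. NAD synthesis genes passed 1.5-fold for none of 17 in IR day 14, and were higher for 2 and lower for 2 of 19 in IR day 28. The 2 higher in IR day 28 were also below that minimum in IR day 5. Nmrk1, a kinase that makes NAD precursors from nicotinamide riboside, was at 132 CPM in the Lac.z day 5 cells and 98.1, 66.0 and 39.3 CPM in the IR cells of days 5, 14 and 28, and 2.50-fold (2.19 to 2.84) lower at day 28 than at day 5. In amino acid breakdown, 2 of 24 genes were higher in Lac.z day 5, a share below the 10.3% of all measured genes, and none was lower. Hpd, of tyrosine breakdown, was at 49.1 CPM in the Lac.z day 5 cells and 14.4, 21.5 and 18.5 CPM in the IR cells of days 5, 14 and 28, and Gldc, of the glycine cleavage system, at 93.1 CPM in the Lac.z day 5 cells and 40.3, 18.9 and 30.7 CPM in the IR cells of days 5, 14 and 28, so both were highest in Lac.z day 5. Of 16 heat shock genes, 4 were higher at day 28 and none was lower. Among those 4, 3 had fewer UMIs in IR day 5 than the minimum for a measured gene, and so were measured through IR day 28. Of the 12 heat shock genes that reached that minimum in IR day 5 alone, 1 was higher at day 28. Over all measured genes, 11.3% were higher at day 28. Hspa5, the chaperone BiP of the endoplasmic reticulum, was at 334 CPM in the Lac.z day 5 cells and 344, 353 and 586 CPM in the IR cells of days 5, 14 and 28. The glutathione transferase Gstp1 was at 57.8 CPM in the Lac.z day 5 cells and 69.9, 248 and 73.8 CPM in the IR cells of days 5, 14 and 28, with IR day 14 apart from the other 3 libraries. Acsm2, Slc16a1, Bdh1, Nmrk1, Hpd, Gldc, Hspa5 and Gstp1 were named here after their values were seen.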
